A study of Mus musculus with 12 samples.

Results

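The Notch pathway was examined through 10 genes: the receptors Notch1, Notch2, Notch3 and Notch4, the ligands Dll1, Dll4 and Jag1, and the transcriptional effectors Hey1, Hey2 and Hes5. They were taken by gene symbol, from a list of names, out of the 24209 gene rows of mRNA-sequencing data from mouse hippocampus, and all 10 were found, each as 1 RefSeq entry. The 12 mice were wild-type adult male C57BL/6 mice, injected at 10 weeks of age into both hippocampi with an AAV5 vector that expressed its transgene from the synapsin promoter, which limits expression to neurons, and the tissue was taken 10 weeks later. In the miR-9 experiment 3 mice with the GFP-miR-9sp vector were compared with 3 GFP Ctrl mice given GFP only, and in the miR-34 experiment 3 mice with GFP-miR-34sp were compared with 3 other GFP Ctrl mice. A sponge (sp) is a transcript that carries 8 imperfect binding sites for a miRNA family and so keeps the miRNA from its own targets. All 12 mice thus received a virus and GFP, and each library is the RNA of the whole hippocampi of a different mouse.

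Notch receptors are cut after they bind a Delta-like or Jagged ligand on a neighbouring cell, and the freed intracellular domain enters the nucleus and switches on genes of the Hes and Hey families, which are transcriptional repressors. In the adult hippocampus the pathway is known for keeping neural stem cells of the dentate gyrus undivided, for its activity in astrocytes and neurons, and for its role in blood vessels, where Notch4, Dll4 and Hey2 are found in endothelial cells and Notch3 in the mural cells around them. Transcripts of Notch1, Notch2, Dll1 and Jag1 are among the best known targets of the miR-34 family, and miR-9 is linked to Hes genes in neural progenitors.

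The miRNAs that the sponges bind are shown first because the question for each gene was whether it holds a site for them. The mature sequences are from RefSeq (GRCm38.p6), and the capitals mark the seed, bases 2 to 8, through which a miRNA recognises a transcript.
mmu-miR-9-5p: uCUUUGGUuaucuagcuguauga
mmu-miR-34a-5p: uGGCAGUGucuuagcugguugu
mmu-miR-34b-5p: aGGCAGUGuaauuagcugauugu
The family also includes miR-34c-5p, whose sequence is not shown here. Both miR-34 sequences shown have the same seed. Its match in a transcript is CACTGCC, and the match to the miR-9 seed is ACCAAAG, each 7 letters, searched on the transcript strand only.

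The 3′ UTR of each gene (the longest annotated in GENCODE M1 on NCBIM37, the mm9 build) was searched for these letters. Windows of 30 bases around the matches in the receptor and ligand genes are given here for miR-34, 5′ to 3′ on the gene's strand, with the match in capitals and an eighth capital where an A stands opposite base 1 of the miRNA.
Notch1, chr2:26314858-26314864, minus strand: tttccacagaaaCACTGCCtttttatttat
Notch1, chr2:26314245-26314251, minus strand: tcctagagaaaaCACTGCCtggactgttct
Notch2, chr3:97953340-97953346, plus strand: aagctctagtgcCACTGCCtgcgaacagta
Notch2, chr3:97953528-97953535, plus strand: tgaagaagacaaCACTGCCAgtcatacatc
Dll1, chr17:15504822-15504829, minus strand: agaggcgcccgaCACTGCCAgcctaggctt
Dll1, chr17:15504698-15504704, minus strand: ataggaagcacgCACTGCCcacacgtctat
Jag1, chr2:136907407-136907413, minus strand: tgccgtagagtaCACTGCCtgccttaagtg
Notch1 held another match at chr2:26314587-26314593. Notch4 held 2 matches in its longest 3′ UTR of 3334 bases and none in the 518 bases of the transcript with the longest coding sequence. The search found no miR-34 match in Notch3, Dll4, Hey1, Hey2 or Hes5. The miR-9 match was found once in each of 2 genes, both receptors, and these windows are the only ones of the 10 genes for that miRNA.
Notch1, chr2:26314961-26314967, minus strand: gatgctggggcgACCAAAGgagccttttaa
Notch2, chr3:97953940-97953946, plus strand: gcatagaaatgaACCAAAGgtgttcagtgt
Of 10326 tested genes with a 3′ UTR in the annotation, 17.4% held the miR-34 match. For genes with a 3′ UTR within 20% of its length the share was 19.6% for Notch1, 30.1% for Notch2, 9.39% for Dll1 and 18.5% for Jag1. The miR-9 match was held by 13.9% of 10736 tested genes. A match is a run of letters and not a measured binding site.

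Reads summed over all entries came to between 17279620 and 24428477 per mouse of the miR-9 experiment, and to between 11029604 and 16934133 per mouse of the miR-34 experiment. The tissue was labelled as hippocampal neurons, but markers of other cells were present in every mouse. The markers of choroid plexus, an epithelium that lies next to the hippocampus, set mice apart: their summed level (10 genes, Folr1 at 0 in all mice) was 667, 2043 and 2426 CPM (counts scaled to a common library total) in the GFP Ctrl mice of the miR-34 experiment and 165, 82 and 151 CPM after miR-34sp injection, so these groups did not overlap. The sums of the miR-9 experiment overlapped, at 62.2 to 916 CPM after miR-9sp injection and 138 to 771 CPM in GFP Ctrl mice. After miR-34sp injection all 8 choroid plexus markers that could be tested were lower, with an unadjusted p under 0.05 for 8 and an adjusted p under 0.05 for 3 (edgeR), and a median log2 fold change of -3.20. Of all genes tested in that experiment, 6.43% had an unadjusted and 0.064% an adjusted p under 0.05.

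Compared per length, as counts divided by entry length and by library total (RPKM), the effectors Hey1 and Hes5 had the highest levels of the 10 genes. The RPKM of Hey1 in GFP Ctrl mice was 30.2 ± 0.967 (SD, n = 3) in the miR-9 experiment and 29.8 ± 0.679 in the miR-34 experiment, above 78.6% and 77.4% of the genes tested. Genes with several RefSeq entries are among those tested and may be listed too low, so both shares may be too high. Hes5 followed with 11.8 ± 1.81 and 11.5 ± 0.838 RPKM, and then the large receptors Notch1 (6.63 ± 0.571 and 6.41 ± 0.0817 RPKM) and Notch2 (6.23 ± 0.246 and 7.77 ± 0.951 RPKM). The order of Notch1 and Notch2 was not the same in the 2 experiments, and their GFP Ctrl values overlapped in the miR-9 experiment. Of the 3 ligands among the 10 genes, Dll1 had the highest level (3.63 ± 0.475 and 3.59 ± 0.135 RPKM), and ligands outside the 10 were not ranked. Notch3 (3.11 ± 0.129 and 2.97 ± 0.310 RPKM) and Jag1 (2.91 ± 0.20 and 3.19 ± 0.213 RPKM) could not be ordered, since their values overlapped in both experiments. The lowest levels of the 10 genes were those of Hey2, Notch4 and Dll4. Hey2 stood at 2.37 ± 0.314 and 2.58 ± 0.0356 RPKM, Notch4 at 1.57 ± 0.105 and 1.49 ± 0.385 RPKM and Dll4 at 1.15 ± 0.350 and 1.52 ± 0.181 RPKM, and Notch4 and Dll4 overlapped in both experiments.

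**Figure D1:**
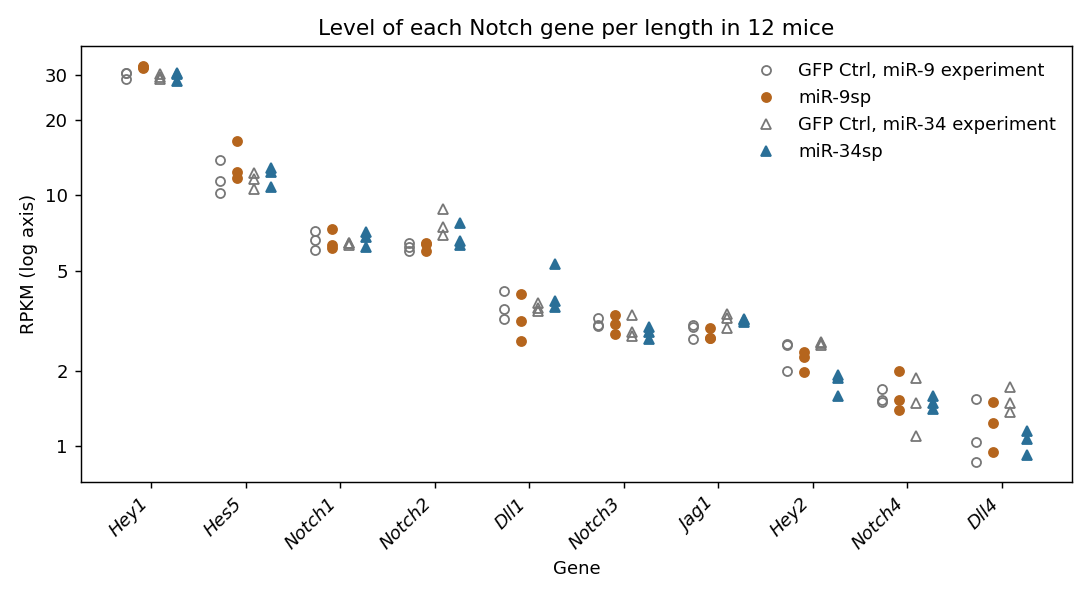
Level of each of the 10 Notch genes in RPKM (log axis) in all 12 mice, with 1 symbol per mouse, circles for the miR-9 experiment, triangles for the miR-34 experiment, open grey symbols for GFP Ctrl and filled symbols for sponge mice. Hey1 lay near 30 RPKM in every mouse, Dll4 and Notch4 lay between 0.866 and 1.99 RPKM, and the 3 miR-34sp mice had the lowest Hey2 values of the 12.

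In the tests against GFP Ctrl, none of the 10 genes passed an adjusted p of 0.05 in either experiment, as 0.0% of all genes did after miR-9sp and 0.064% after miR-34sp injection. At an unadjusted p under 0.05, Hey1 was higher after miR-9sp injection (1 of 10 genes), and Dll4 and Hey2 were lower after miR-34sp injection (2 of 10 genes). Of all genes tested, 4.73% of 13045 reached that limit with miR-9sp (2.47% higher) and 6.43% of 12492 with miR-34sp (2.71% higher, 3.72% lower). These are counts of 1 and 2 genes, and no test of the list was made. The 10 genes, like the wider pathway lists below, were chosen with earlier results of these data known. The counts are therefore not read as an excess over these shares. The median log2 fold change over the 10 genes was 0.024 after miR-9sp and -0.0046 after miR-34sp injection, against medians of -0.0006 and -0.0007 over all genes. Where no other test is named, p-values are from edgeR quasi-likelihood tests, with Benjamini-Hochberg adjustment over all genes, and with groups of 3 the lowest p that exact permutation allows is 0.1. In whole tissue, fewer cells of a type and less RNA per cell cannot be told apart.

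**Figure D2:**
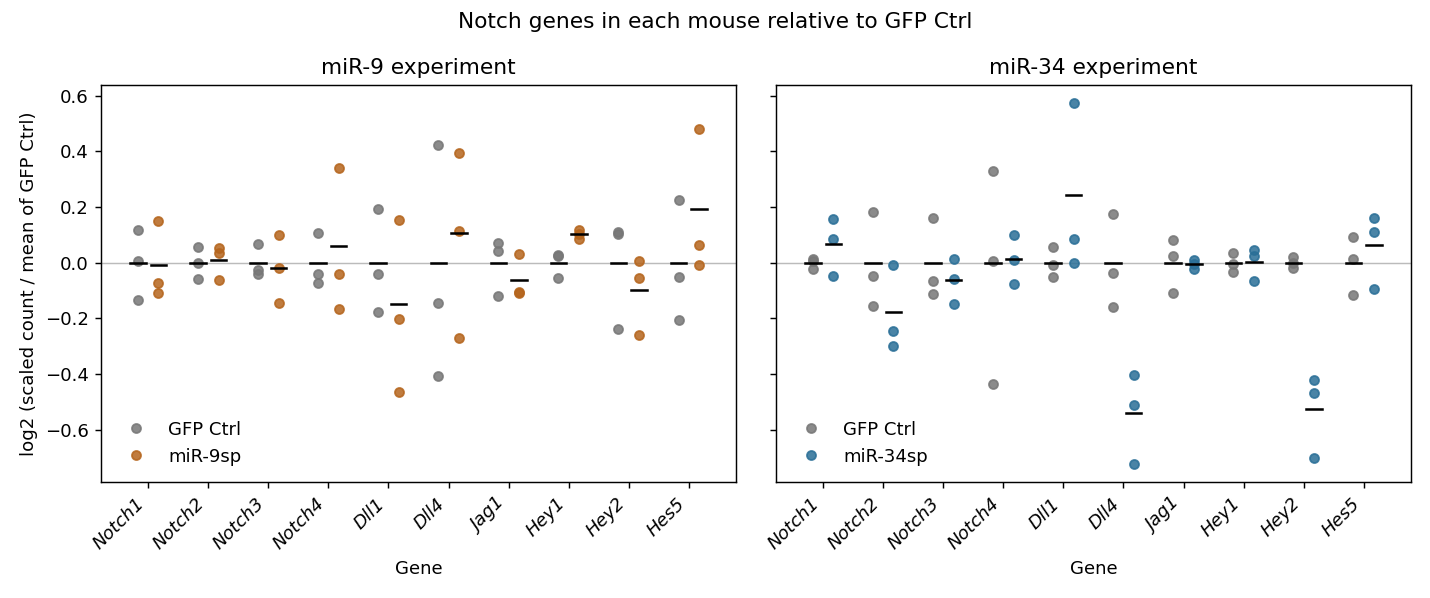
Scaled count of each gene in each mouse as log2 of its ratio to the mean of the GFP Ctrl mice of the same experiment, with 1 dot per mouse (grey, GFP Ctrl; coloured, sponge; n = 3 each) and black lines at the log2 of the ratio of group means. The coloured dots of Hey1 in the miR-9 experiment lie above all grey dots, and those of Dll4 and Hey2 in the miR-34 experiment lie below all grey dots.

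The receptor Notch1 (NM_008714, chr2:26313423-26372183 on NCBIM37, minus strand), the receptor most studied in hippocampal stem cells and neurons, had scaled counts (counts brought to the mean total of the experiment) of 1405, 1175 and 1207 in the miR-9sp mice and 1374, 1155 and 1274 in their GFP Ctrl mice. In the miR-34 experiment the scaled counts were 843, 768 and 887 after miR-34sp and 783, 803 and 798 in GFP Ctrl mice. The groups overlapped in both experiments although Notch1 holds matches for both miRNAs. The log2 fold change was 0.01 ± 0.08 (SE, adjusted p = 0.994) with miR-9sp and 0.07 ± 0.06 (adjusted p = 0.917) with miR-34sp, and the 95% interval of the fold with miR-34sp, 0.961 to 1.14, bounds any rise or fall at about that size.

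Notch2 (NM_010928, chr3:97817461-97954290, plus strand), a receptor with broad expression in glia and vessels, also holds matches for both miRNAs. Its scaled counts were 1354, 1371 and 1266 with miR-9sp and 1268, 1372 and 1318 in GFP Ctrl mice, a log2 fold change of 0.03 ± 0.05 (adjusted p = 0.973). In the miR-34 experiment they were 867, 900 and 1060 with miR-34sp and 957, 1030 and 1210 in GFP Ctrl mice. The miR-34sp mice leaned to lower values, but the mouse at 1060 lay above 2 GFP Ctrl mice, and the log2 fold change was -0.18 ± 0.09 (unadjusted p of 0.0634, adjusted p = 0.797). Without the 2 mice with the highest choroid plexus sums the value was -0.03 (adjusted p = 0.991), and both of these were GFP Ctrl mice.

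Notch3 (NM_008716, chr17:32257765-32303825, minus strand), the receptor of vascular mural cells, and Notch4 (NM_010929, chr17:34701213-34725448, plus strand), the endothelial receptor, overlapped between groups in both experiments. The scaled counts of Notch3 were 450 to 534 with miR-9sp and 484 to 521 in GFP Ctrl mice, and 278 to 312 with miR-34sp and 285 to 345 in GFP Ctrl mice, with log2 fold changes of 0.0044 ± 0.07 (adjusted p = 0.996) and -0.06 ± 0.09 (adjusted p = 0.947). Those of Notch4 were 187 to 265 with miR-9sp and 199 to 225 in GFP Ctrl mice, and 121 to 137 with miR-34sp and 94.7 to 161 in GFP Ctrl mice. The log2 fold changes of Notch4 were 0.09 ± 0.12 (adjusted p = 0.973) and 0.03 ± 0.17 (adjusted p = 0.988). The spread among the GFP Ctrl mice of the miR-34 experiment was wide for Notch4, and the interval of its fold there, 0.790 to 1.31, leaves room for changes in either direction. Without the 2 mice with the highest choroid plexus sums the log2 fold change of Notch4 after miR-34sp was 0.45 (unadjusted p of 0.0238, adjusted p = 0.929), a value that rests on the remaining GFP Ctrl mouse, the lowest of the 3.

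Among the ligands, Dll1 (NM_007865, chr17:15504318-15513836, minus strand), the Delta-like ligand of neural progenitors and neurons, holds an 8-letter and a 7-letter miR-34 match. Its scaled counts were 160, 170 and 239 with miR-34sp and 155, 167 and 160 in GFP Ctrl mice. The mouse at 239 stood apart from the other five, and the log2 fold change was 0.23 ± 0.14 (adjusted p = 0.863). Leaving out 1 mouse at a time moved it from 0.05 to 0.35, with the lowest value when that mouse (number 3) was left out. With the other sponge Dll1 had scaled counts of 279, 218 and 182 with miR-9sp and 286, 222 and 244 in GFP Ctrl mice, a log2 fold change of -0.13 ± 0.15 (adjusted p = 0.971), and -0.38 (unadjusted p of 0.0221, adjusted p = 0.759) without the 2 mice of that experiment with the highest choroid plexus sums.

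Jag1 (NM_013822, chr2:136907192-136942380, minus strand), a Jagged ligand with a miR-34 match, was the most even of the ligands. Its scaled counts were 228, 225 and 230 with miR-34sp and 232, 212 and 242 in GFP Ctrl mice, a log2 fold change of -0.010 ± 0.08 (adjusted p = 0.990) with an interval of the fold from 0.875 to 1.13. After miR-9sp injection the scaled counts were 299 to 329 against 297 to 338 in GFP Ctrl mice, a log2 fold change of -0.04 ± 0.08 (adjusted p = 0.978).

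Dll4 (NM_019454, chr2:119151520-119161698, plus strand) is the Delta-like ligand of endothelial tip cells and arteries. Its scaled counts were 41.7, 48.2 and 51.9 with miR-34sp and 67.0, 61.6 and 77.7 in GFP Ctrl mice. The groups did not overlap, as for 5.43% of all genes tested in that direction, and every miR-34sp mouse lay below the lowest GFP Ctrl mouse. The log2 fold change was -0.55 ± 0.16, a fold of 0.682 (95% interval 0.531 to 0.875), with an unadjusted p of 0.00614 and an adjusted p of 0.540 (edgeR). The exact permutation test gave p = 0.1, the smallest it allows. These values rest on 43 to 70 reads per mouse, for which counting alone gives a coefficient of variation of 12.5% in GFP Ctrl mice and 14.1% in miR-34sp mice. In the miR-9 experiment Dll4 had scaled counts of 86.4, 105 and 66.2 with miR-9sp and 60.2, 107 and 72.1 in GFP Ctrl mice. Both groups spanned nearly the same range there, with a log2 fold change of 0.13 ± 0.24 (adjusted p = 0.978).

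Among the effectors, Hey2 (NM_013904, chr10:30552165-30562607, minus strand), a repressor known for its part in arterial endothelium and heart, had scaled counts of 52.5, 61.7 and 63.7 with miR-34sp and 84.2, 85.3 and 86.5 in GFP Ctrl mice. The groups did not overlap. The log2 fold change was -0.54 ± 0.14, a fold of 0.689 (0.557 to 0.852), with an unadjusted p of 0.00257 and an adjusted p of 0.412 (edgeR), and the exact permutation test gave p = 0.1. The SD of the GFP Ctrl mice, 1.18 scaled counts, was below the 9.24 that counting alone would give at that mean, so these 3 mice lay closer together than reads of this number can resolve. After miR-9sp injection the scaled counts of Hey2 were 116, 121 and 101 against 102, 130 and 130 in GFP Ctrl mice. The groups overlapped, with a log2 fold change of -0.07 ± 0.14 (adjusted p = 0.978).

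Hey1 (NM_010423, chr3:8663362-8667039, minus strand), a repressor of the same family as Hey2 and the gene with the highest level of the 10, had scaled counts of 1457, 1424 and 1442 with miR-9sp and 1368, 1293 and 1366 in GFP Ctrl mice. The groups did not overlap, as for 3.11% of all genes tested in that direction. The SD of the miR-9sp mice, 16.2 scaled counts, was below the 38.0 that counting alone would give at that mean. These 3 mice thus lay closer together than reads of this number can resolve. The difference was small, a log2 fold change of 0.12 ± 0.04 or a fold of 1.09 (1.02 to 1.16), with an unadjusted p of 0.0136 and an adjusted p of 0.970 (edgeR), and p = 0.1 by exact permutation. DESeq2 gave 0 of the 10 genes an unadjusted p under 0.05 in this experiment, and without GFP Ctrl mouse 2 edgeR gave an unadjusted p of 0.0526. Without the 2 mice with the highest choroid plexus sums the value was 0.10 (unadjusted p of 0.0842, adjusted p = 0.826). The summed neuronal markers were also higher in the same mice without overlap, at 5732 to 5858 CPM with miR-9sp and 5309 to 5643 CPM in GFP Ctrl mice (10 genes, Rbfox3 at or near 0), and their part in the value of Hey1 was not tested. In the miR-34 experiment Hey1 had scaled counts of 886, 872 and 820 with miR-34sp and 855, 839 and 878 in GFP Ctrl mice, a log2 fold change of 0.00079 ± 0.05 (adjusted p = 0.999) with an interval of the fold from 0.924 to 1.08. A change of Hey1 as large as that of Hey2 after miR-34sp injection lies outside this interval.

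Hes5 (NM_010419, chr4:154335032-154336480, plus strand), the effector that marks Notch activity in neural stem cells and astrocytes, had scaled counts of 422, 316 and 301 with miR-9sp and 353, 292 and 262 in GFP Ctrl mice. The mouse at 422 (number 17) stood apart, and this was also the miR-9sp mouse with the highest choroid plexus sum, 916 CPM. Without it and the GFP Ctrl mouse with the highest sum the log2 fold change was 0.025 (adjusted p = 0.985). The log2 fold change was 0.21 ± 0.14 (adjusted p = 0.970). After miR-34sp injection the scaled counts were 214, 206 and 179 against 193, 176 and 204 in GFP Ctrl mice, a log2 fold change of 0.06 ± 0.10 (adjusted p = 0.961).

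**Figure D3:**
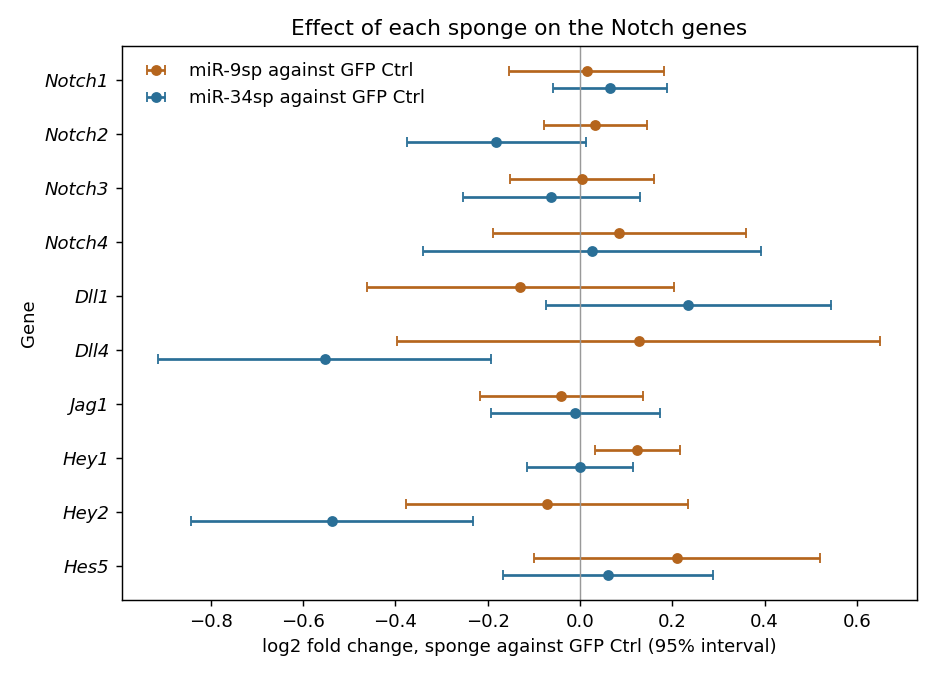
Log2 fold change of each gene, sponge against GFP Ctrl of the same experiment, from edgeR (dots) with 95% intervals (bars), brown for miR-9sp and blue for miR-34sp. The intervals of Dll4 (-0.91 to -0.19) and Hey2 (-0.84 to -0.23) in the miR-34 experiment and of Hey1 in the miR-9 experiment (0.03 to 0.22) leave out 0, and the other 17 include it.

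Whether the sponges differed in their effect on a gene was tested as the miR-9sp effect minus the miR-34sp effect in 1 model of all 12 mice. Each sponge was given in its own experiment. A difference between the sponge effects therefore cannot be told apart from a difference between the experiments. Of the 10 genes, Dll4 and Hey2 had an unadjusted p under 0.05 for the difference, where 6.1% of 12835 genes did and 3.55% in the direction of both, and no gene of the whole table passed the adjusted p (0.0%). The difference was 0.68 ± 0.31 on the log2 scale for Dll4 (unadjusted p of 0.0425, adjusted p = 0.795) and 0.47 ± 0.19 for Hey2 (unadjusted p of 0.0263, adjusted p = 0.767). The differences of Hey1 (0.13 ± 0.06) and Notch2 (0.22 ± 0.11) had unadjusted p of 0.0710 and 0.0721, and those of the other 6 genes had unadjusted p of 0.131 to 0.796. These differences were not stable at the unadjusted limit. Leaving out any of 8 of the 12 mice took Dll4 past it, with unadjusted p up to 0.121 (without miR-9sp mouse 23), and any of 3 mice took Hey2 past it (miR-34sp mouse 13, miR-9sp mouse 23 and GFP Ctrl mouse 16 of the miR-9 experiment), with unadjusted p up to 0.0801, and DESeq2 gave neither gene an unadjusted p under 0.05. Without the 2 mice of each experiment with the highest choroid plexus sums the difference was 0.92 for Dll4 (unadjusted p of 0.0268) and 0.49 for Hey2 (unadjusted p of 0.105).

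Dll4 and Hey2 were lower in the same mice in which choroid plexus markers were lower. In the miR-34 experiment the choroid plexus sums did not overlap between the groups (82 to 165 CPM with miR-34sp, 667 to 2426 CPM in GFP Ctrl), so a lower level of Dll4 and Hey2 cannot be told apart from a smaller amount of choroid plexus in the dissected tissue. Within GFP Ctrl, the mouse with 667 CPM had 67.0 scaled counts of Dll4 and 84.2 of Hey2, and the mice with 2043 and 2426 CPM had 61.6 and 77.7 of Dll4 and 85.3 and 86.5 of Hey2. Without the latter 2 mice the log2 fold changes were -0.52 for Dll4 and -0.52 for Hey2. This comparison has 1 GFP Ctrl mouse. Its 667 CPM is still above the 82 to 165 CPM of the miR-34sp mice. Leaving out mice thus did not remove the difference in choroid plexus markers between the groups, and their part in these values was not tested. The mice of the miR-9 experiment with the highest choroid plexus sums, 916 CPM with miR-9sp and 771 CPM in GFP Ctrl, had 86.4 and 107 scaled counts of Dll4 and 116 and 130 of Hey2. The 107 of Dll4 was the highest of that experiment, followed by 105 in miR-9sp mouse 23. The values 86.4, 116 and 130 lay inside the range of the other mice.

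The summed level of the endothelial markers (10 genes, Tek at 0 in all mice) was 282 to 311 CPM with miR-34sp and 286 to 333 CPM in GFP Ctrl mice, which overlap. Of its 7 genes tested, 5 had a log2 fold change below 0 (median -0.09). Kdr, the endothelial VEGF receptor, was the single gene of the list with an unadjusted p under 0.05, with a log2 fold change of -0.23 ± 0.06 (unadjusted p of 0.00381, adjusted p = 0.481) and no overlap between groups. Of all genes tested, 6.43% had an unadjusted p under 0.05 and 5.43% were lower without overlap. The summed mural markers (10 genes, Pdgfrb and Abcc9 at 0) were 242 to 248 CPM and 253 to 297 CPM. They did not overlap, and their median log2 fold change was -0.15. The part of these vascular cells in the values of Dll4 and Hey2 was not tested. Notch4 and Notch3, known from the same cells, had log2 fold changes of 0.03 and -0.06 in the same mice.

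**Figure D4:**
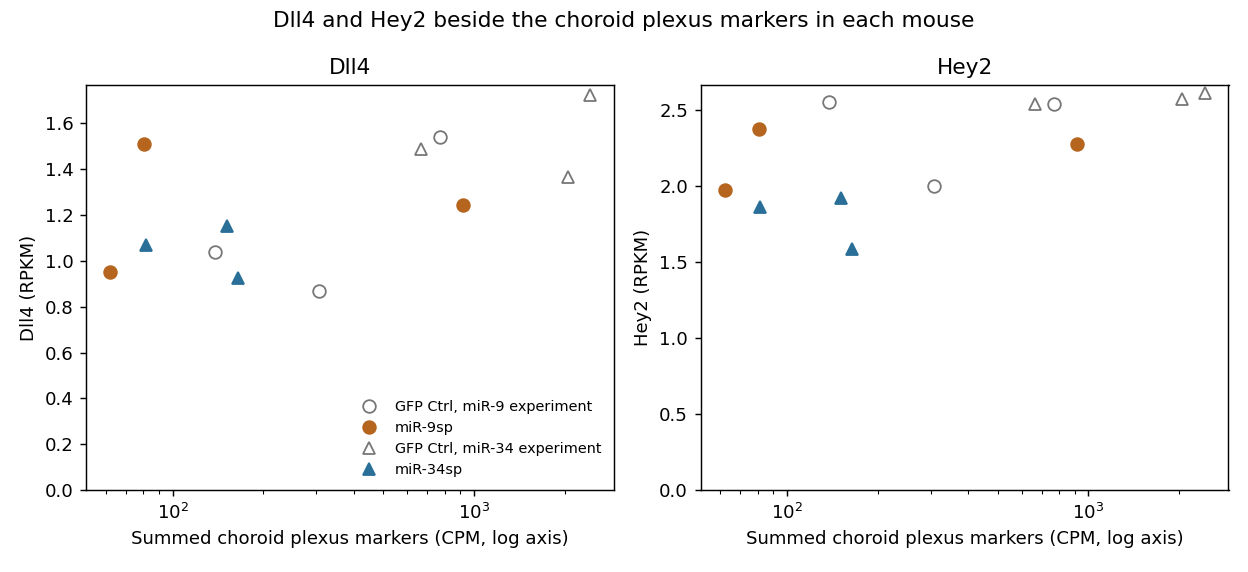
RPKM of Dll4 (left) and Hey2 (right) against the summed choroid plexus markers in CPM (log axis), with 1 symbol per mouse, circles for the miR-9 experiment, triangles for the miR-34 experiment, open grey symbols for GFP Ctrl and filled symbols for sponge mice. The filled and open triangles are apart on both axes for both genes, and the circles are mixed on both axes.

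The genes that hold a miR-34 match lay on both sides of 0 after miR-34sp injection. The 5 genes with a match in the longest 3′ UTR (Notch1, Notch2, Notch4, Dll1 and Jag1) had log2 fold changes of 0.07, -0.18, 0.03, 0.23 and -0.010, a median of 0.03, and none had an unadjusted p under 0.05. Over all tested genes the median was -0.0017 for those with the match and -0.0025 for those without. Dll4 and Hey2, the 2 genes with an unadjusted p under 0.05 in that experiment, hold no match and were lower. The 2 genes with a miR-9 match, Notch1 and Notch2, had log2 fold changes of 0.01 and 0.03 after miR-9sp injection, against a median of 0.0086 for all tested genes with the match and -0.0021 for those without. Hey1, the gene with an unadjusted p under 0.05 there, holds no match.

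The wider pathway was read from 8 lists by role, with 80 genes in all, of which 63 passed the filter on low counts in each experiment. After miR-9sp injection 0 of 63 had an unadjusted p under 0.05, against 4.73% of all genes (0 by adjusted p as well, edgeR, and DESeq2 also gave 0), and the groups did not overlap for 7, all lower, where 7.86% of all genes did so in that direction. After miR-34sp injection 2 of 63 had an unadjusted p under 0.05, 1 in each direction, where 6.43% of all genes did, and none passed the adjusted p. The groups did not overlap for 2 genes that were higher and 3 that were lower, against 6.2% and 5.43% of all genes. The medians over the 63 genes were 0.0054 and -0.0027 on the log2 scale, at the level of all genes.

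Ccnd1, which encodes the cell cycle protein cyclin D1 and is a known Notch target, was the lower of these. Its scaled counts were 1166, 1191 and 1063 with miR-34sp and 1477, 1346 and 1365 in GFP Ctrl mice. The groups lay far apart against their spread, with a log2 fold change of -0.30 ± 0.06, an unadjusted p of 0.000306 and an adjusted p of 0.166 (edgeR), and p = 0.1 by exact permutation. DESeq2 gave an adjusted p of 0.0150, and edgeR without the filter on low counts gave 0.00212, so that the call for Ccnd1 depends on the tool and the filter. The choroid plexus sums of the same groups do not overlap either, so a lower level of Ccnd1 cannot be told apart from less choroid plexus in the tissue. Without the 2 GFP Ctrl mice with the highest sums the log2 fold change of Ccnd1 was -0.38, with 1 GFP Ctrl mouse left. The sum of that mouse, 667 CPM, is still above those of all miR-34sp mice, so the groups stay apart in choroid plexus markers. After miR-9sp injection the scaled counts were 2681, 2202 and 1809 against 1914, 2118 and 1701 in GFP Ctrl mice, a log2 fold change of 0.24 ± 0.12 (adjusted p = 0.970). The difference between the sponges was 0.54 ± 0.15 (unadjusted p of 0.00305, adjusted p = 0.704).

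Dtx3, a ubiquitin ligase of the Deltex family that is linked to Notch turnover, was the higher gene after miR-34sp injection, with scaled counts of 3238, 3136 and 3369 against 3107, 3062 and 2974 in GFP Ctrl mice. Its log2 fold change was 0.09 ± 0.04 (unadjusted p of 0.0368, adjusted p = 0.728), and its unadjusted p was 0.05 or more, up to 0.123, when any of 4 mice was left out (GFP Ctrl mice 4 and 8, miR-34sp mice 13 and 3). Without the 2 GFP Ctrl mice with the highest choroid plexus sums it was 0.06 (unadjusted p of 0.356). The difference was small but the groups did not overlap (exact permutation p = 0.1), as for 6.2% of all genes in that direction.

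By role, the list of other effectors had the lowest median after miR-34sp injection, -0.07, with all 8 of its tested genes below 0, and Ccnd1 was the only one of them with an unadjusted p under 0.05. Hes1, Heyl and Nrarp, which are relatives of the effectors above or direct targets and were picked for that and not by their values, had log2 fold changes of -0.08 ± 0.13 (adjusted p = 0.952), -0.06 ± 0.12 (adjusted p = 0.965) and -0.04 ± 0.07 (adjusted p = 0.961). After miR-9sp injection the same list had 5 genes above and 3 below 0 with a median of 0.0035. The genes of receptor cleavage, among them Adam10, had medians of -0.07 with miR-9sp and 0.02 with miR-34sp (6 tested), and those of the nuclear complex 0.02 and -0.00022 (7 tested). Medians of the co-repressors (10 tested), glycosyltransferases of the Fringe type and others (8 tested), ligand endocytosis genes (8 tested), inhibitors and turnover genes (10 tested) and other ligands (6 tested) lay between -0.05 and 0.07 in both experiments, and none of these lists had more than 1 gene with an unadjusted p under 0.05.

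Of the 17 genes of these lists that were not tested, 16 had entries, and 13 of the 16 had more than 1 RefSeq entry, against 17 of the 63 tested genes. Rbpj, the DNA-binding partner of the Notch intracellular domain, has 4 entries and a sum of 18 reads over the 12 mice, and Numb, an inhibitor of Notch, has 6 entries and is listed at 0. A value of 0 or near it in a gene with several entries is not read as lack of expression. The 10 Notch genes above have 1 entry each.

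**Figure D5:**
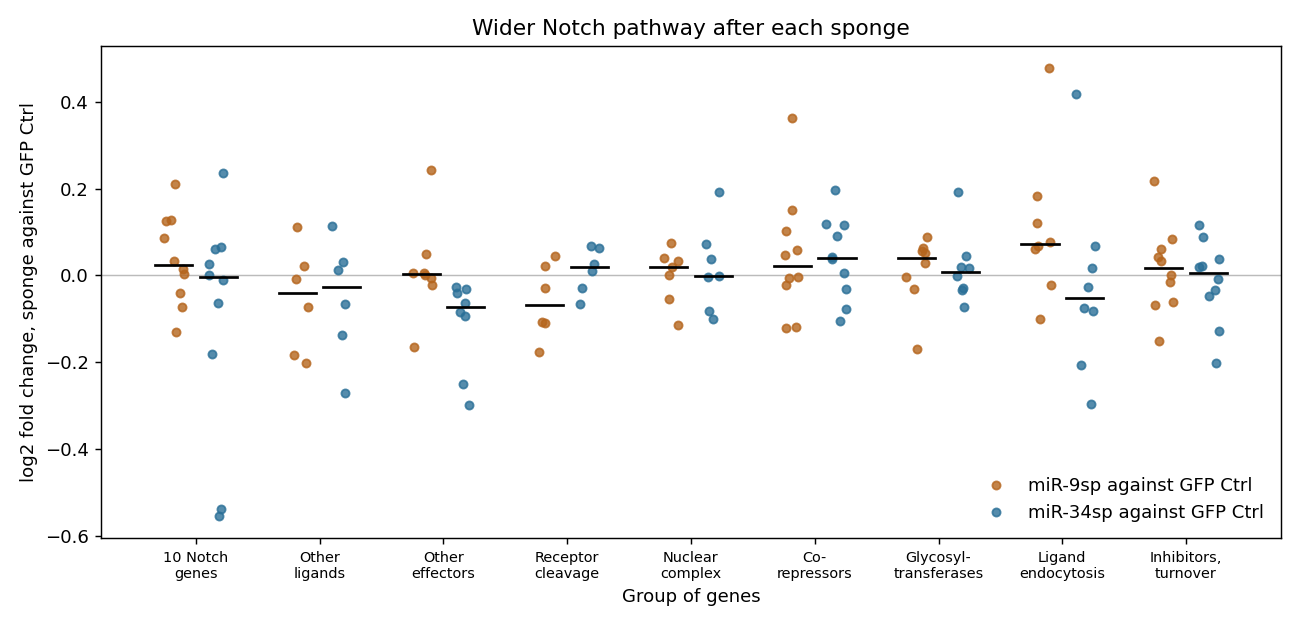
Log2 fold change of each tested gene, sponge against GFP Ctrl, for the 10 Notch genes and the 8 lists of the wider pathway, with 1 dot per gene (brown, miR-9sp; blue, miR-34sp) and black lines at the medians. Medians lie between -0.07 and 0.07, and Dll4 and Hey2 are the lowest blue dots, at -0.55 and -0.54.

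As a description of which genes varied alike, log2(CPM + 0.5) of each mouse was taken as its deviation from the mean of its experiment and compared over 12 mice and 12835 genes. Among the 10 genes, the pair most alike was Dll4 and Hey2 (Pearson r = 0.82), followed by Notch1 and Dll1 (r = 0.78), Notch2 and Dll4 (r = 0.73) and Notch2 and Hey2 (r = 0.68). The deviations keep the group differences, so every r here includes them. The pairs among Dll4, Hey2 and Notch2 hold the lower values of these 3 genes after miR-34sp injection given above. Of all genes, those most like Dll4 were Cep162, Shisal1 and Gtf3c1 (r = 0.91, 0.90 and 0.89), and those most like Hey2 were Ablim1, Shisal1 and Bag3 (r = 0.92, 0.87 and 0.85), so that Shisal1 was named for both. Slc13a3 and Mmp14 were among the genes most like Notch3 (r = 0.94 and 0.93), and Hes5 varied most like Cspg4, Mcm3 and Mertk (r = 0.87, 0.87 and 0.84). For Notch1 the genes were Npepl1, Dennd3 and Rnf215 (r = 0.94, 0.93 and 0.92), and for Notch2 they were Ehhadh, Gm10033 and Tbcel (r = 0.93, 0.89 and 0.87). Notch4 was closest to Ccdc90b, Oxnad1 and Dennd1c (r = 0.92, 0.92 and 0.87), Dll1 to Tada1, Sbk1 and Mllt10 (r = 0.91, 0.90 and 0.90), Jag1 to 1700030K09Rik, Tshz1 and Zfp108 (r = 0.90, 0.90 and 0.88) and Hey1 to Nat8l, Prss16 and Psmg3 (r = 0.86, 0.86 and 0.86). Each of these is among the 3 highest of the r of all 12835 genes, and they are given as a description without a test.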

How the data were processed

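The deposited values were raw counts, the number of 50 bp single end reads that the authors assigned to each RefSeq transcript after mapping, with another value beside each count, the length of the entry in bases, also deposited by the authors. The methods of the study name mm9 and the submitters' processing notes name mm10 and STAR, and which of these made the counts is not settled. The rule for reads shared by transcripts is not given in the sources used here. The paper's methods describe poly-A enrichment, and headers of the miR-9 experiment carry the word totRNA.

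Counts of 32850 entries were joined to symbols of RefSeq GRCm38.p6 (98.7% matched) and summed per symbol to 24209 gene rows. Genes with a mean scaled count above 10 over the 6 mice were tested, 13045 in the miR-9 and 12492 in the miR-34 experiment (12835 with all 12 mice), and all 10 Notch genes passed in each. The tests were two-sided quasi-likelihood tests of edgeR 4.0.16 (R 4.3.3) with TMM normalisation and Benjamini-Hochberg adjustment over all genes tested. DESeq2 1.42.0, other normalisations and filters, 1 model of 12 mice, single entries and leaving out each mouse were alternatives. The edgeR script was tested on simulated data. The labels name the experiment of 3 GFP Ctrl mice, and the other 3 were taken as those of the miR-9 experiment. The mice are different animals, and p-values set the difference between groups against the spread between mice. edgeR estimates that spread for each gene in part from the other genes tested. PCR copies cannot be told apart, so counting errors cover counting only. A gene with 3 reads or fewer was read as at the floor. The 10 genes, the pathway lists and the marker lists were chosen with earlier results of these data known. Of the wider pathway, genes with an unadjusted p under 0.05 whose groups did not overlap were named. The alternative without the 2 mice with the highest choroid plexus sums of each experiment, and the search of the 3′ UTR of the transcript with the longest coding sequence, were added after seeing the data.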

Additional observations from a re-analysis of the deposited data

Results flagged for a closer look

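The difference between the sponge effects (miR-9sp minus miR-34sp, log2 scale, edgeR) had an unadjusted p under 0.05 for 3 of the genes named here, and none passed the adjusted p. Dll4 differed by 0.68 ± 0.31 (unadjusted p of 0.0425, adjusted p = 0.795), from 0.13 after miR-9sp and -0.55 after miR-34sp injection. Hey2 differed by 0.47 ± 0.19 (unadjusted p of 0.0263, adjusted p = 0.767), from -0.07 and -0.54. Ccnd1 differed by 0.54 ± 0.15 (unadjusted p of 0.00305, adjusted p = 0.704), from 0.24 and -0.30. Of all 12835 genes tested for this difference, 6.1% had an unadjusted p under 0.05. Sponge and experiment cannot be told apart in these values.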

How the results depend on the processing

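No paired analysis was possible because the sponge and GFP Ctrl mice of an experiment share no mouse number. Of 543 recomputed log2 fold changes of 36 results, 504 kept their direction and their side of the adjusted p limit, 37 turned direction, and 2 (Ccnd1 after miR-34sp injection, with DESeq2 and with no filter) passed the limit. Dll4 (-0.62 to -0.46) and Hey2 (-0.59 to -0.45) after miR-34sp injection and Hey1 (0.10 to 0.14) after miR-9sp injection kept their direction without any 1 mouse, with unadjusted p of 0.00685 to 0.0330, 0.00427 to 0.0158 and 0.0215 to 0.0526 (edgeR). Where a value turned or moved, the cause was not tested. Depth limits Dll4 and Hey2, whose mean scaled counts fall below 100 in the miR-34 experiment, so that with a limit of 100 they are not tested and 0 of the 10 genes have an unadjusted p under 0.05 there, and 0 for the difference between the sponges.

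Genes with an adjusted p under 0.05 in the miR-34 experiment (8) were 36 with DESeq2, 81 with no filter, 4 with RLE size factors, with total counts only and with single entries, 0 in 1 model of 12 mice and above a mean count of 100, and 1 without the 2 mice of highest choroid plexus sum. In the miR-9 experiment (0, against 617 with an unadjusted p under 0.05) they were 2 with DESeq2, 2 with no filter and 1 without those mice, and for the difference (0, against 783) 5, 4 and 1. Of the 10 genes, DESeq2 put 0 under an unadjusted p of 0.05 with miR-9sp (1) and 0 for the difference (2), where total counts gave 1. Wider pathway genes at that limit in the miR-34 experiment (2) were 1 with DESeq2, 4 with no filter and 5 without those mice. With miR-9sp (0) they were 2 with no filter, 2 in 1 model of 12 mice, 1 with total counts and 1 above a mean count of 100, and for the difference (2) 1 with DESeq2. Genes with a seed match were 3 of 5 for miR-34 with 8 letters only, and 0 of 2 for miR-9. With bases 2 to 7 followed by A, neither Notch1 nor Notch2 had a miR-9 match and 1 other gene, Notch4, had one.

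Values that turned lay near 0 in most cases. Hey1 after miR-34sp was -0.0010 above a mean count of 100, and with total counts Notch1 and Notch3 after miR-9sp were -0.0062 and -0.017. Without the 2 mice of highest choroid plexus sum the values after miR-9sp were -0.12 for Notch1, -0.062 for Notch3 and -0.013 for Notch4, Notch3 after miR-34sp was 0.045, and the differences were -0.11 for Notch3, -0.46 for Notch4 (unadjusted p of 0.0336) and -0.024 for Hes5.

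Leaving out 1 mouse at a time gave 0 to 57 genes with an adjusted p under 0.05 with miR-34sp, 0 to 1 with miR-9sp and 0 to 1 for the difference. The 57 came without GFP Ctrl mouse 10, and each other mouse left 0 or 1. Among the 10 genes the number at an unadjusted p under 0.05 ran from 0 to 2 with miR-9sp and from 0 to 3 for the difference. Of the wider pathway the counts were 1 to 4 after miR-34sp, 1 to 3 after miR-9sp injection and 1 to 5 for the difference. Values that turned after miR-9sp ranged over -0.057 to 0.079 for Notch1, -0.046 to 0.052 for Notch3, -0.067 to 0.17 for Notch4, -0.30 to 0.010 for Dll1, -0.050 to 0.40 for Dll4, -0.18 to 0.0048 for Hey2 and -0.0072 to 0.070 for Dtx3. After miR-34sp they ranged over -0.12 to 0.025 for Notch3, -0.16 to 0.22 for Notch4, -0.058 to 0.029 for Jag1, -0.027 to 0.041 for Hey1 and -0.00035 to 0.14 for Hes5. The differences ranged over -0.12 to 0.017 for Notch1, -0.017 to 0.13 for Notch3, -0.13 to 0.25 for Notch4, -0.080 to 0.021 for Jag1 and -0.0059 to 0.29 for Hes5.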

Other observations

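The markers of other cell types in the same libraries moved as follows, with no test of a list. Of all genes tested, 4.73% had an unadjusted p under 0.05 in the miR-9 experiment and 6.43% in the miR-34 experiment (edgeR). The 9 tested neuronal markers all had log2 fold changes above 0 after miR-9sp injection (median 0.06, 2 with an unadjusted p under 0.05), and their sums did not overlap, as given beside Hey1. The groups did not overlap for 1 of them, Eno2. Gad2 and Tubb3 lay at 0.02 each, and their mean scaled counts were 0.997 of those in GFP Ctrl mice. After miR-34sp injection 7 of the 9 neuronal markers were below 0 (median -0.04), and the sums overlapped. Of the 9 tested astrocyte markers, 8 were below 0 after miR-34sp injection (median -0.05), among them Gfap at -0.19 ± 0.05 (unadjusted p of 0.00345, adjusted p = 0.464, edgeR). The summed astrocyte markers overlapped between groups, at 3481 to 3648 CPM with miR-34sp and 3589 to 3819 CPM in GFP Ctrl mice, and they overlapped in the miR-9 experiment as well. The summed microglia markers (10 genes, Itgam at 0 in all mice) were lower after miR-9sp injection without overlap, at 585 to 616 CPM against 629 to 645 CPM in GFP Ctrl mice. Of the 8 tested, 7 were below 0 (median -0.07), with an unadjusted p under 0.05 for 1, Csf1r. Their sums overlapped in the miR-34 experiment. The oligodendrocyte sums overlapped in both experiments, with 8 of 9 tested markers below 0 after miR-9sp (median -0.11) and 8 of 9 above 0 after miR-34sp injection (median 0.06). The ependymal sums overlapped in both as well, with 6 of 7 tested markers below 0 in each (medians -0.17 and -0.22). Markers of neural progenitors, the cells in which Hes5 is best known, summed to 181 to 199 CPM with miR-34sp and 180 to 202 CPM in GFP Ctrl mice, and to 180 to 201 CPM with miR-9sp and 200 to 208 CPM in GFP Ctrl mice, with Eomes at 0 in all mice. After miR-9sp injection 7 of 8 tested progenitor markers were below 0 (median -0.06, 1 with an unadjusted p under 0.05, edgeR). For 2 of them, both lower, the groups did not overlap, as for 7.86% of all genes tested in that direction. After miR-34sp injection 5 of 8 were below 0 (median -0.0058).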
